A study of Drosophila melanogaster with 36 samples.

Results

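The small heat shock proteins of Drosophila melanogaster are described here through 7 genes chosen by name, Hsp22, Hsp23, Hsp26, Hsp27, l(2)efl, Hsp67Ba and Hsp67Bc. They were found by gene symbol among 12842 genes listed for head, 12394 for fat body and 11311 for ovaries, and all 7 were listed in each tissue. Small heat shock proteins are chaperones built around an alpha-crystallin domain. They bind unfolding proteins without using ATP and hold them in a state from which ATP-dependent chaperones such as Hsp70 can refold them. In flies their genes are transcribed strongly after heat shock through the heat shock factor Hsf, several are also expressed during development and in the ovary without stress, and they are known as genes whose transcripts are often higher in old flies. Hsp22 acts in the mitochondrial matrix, Hsp23 and Hsp26 in the cytosol, and Hsp27 mainly in the nucleus. The protein of l(2)efl is related to vertebrate alpha-crystallins, and Hsp67Bc works with the co-chaperone encoded by stv in protein quality control by autophagy. No role is given here for Hsp67Ba.

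The flies were females raised as larvae on 1 of 2 sugar-yeast-agar (SYA) diets, 100% SYA (called M) or 120% SYA (called H), and kept on a common diet as adults. Tissue was taken when 10% of the cohort had died (RNA-1) and when 60% had died (RNA-2), so the time points are set by mortality and the age in days can differ between M and H. Each of the 12 groups (3 tissues, 2 diets and 2 time points) had 3 libraries of mRNA, and each library came from a pool of 11 or 12 females. The fat body samples were abdomens without gut and ovaries, so other abdominal cells are in them. Each female gave all 3 tissues, so results in different tissues are not independent of each other. In H, the replicate numbers of the head libraries differ in part from those of the other tissues. No group carried a transgene or a mutation named in the labels. Values are normalized counts, that is, the authors' estimated read counts per gene after scaling between the libraries of a tissue, and in bulk tissue a change in the number of cells of a type and a change in RNA per cell cannot be told apart.

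Of the 7 genes, 6 lie together at cytological position 67B on chromosome arm 3L, within 14.2 kb from base 9371511 to base 9385694 (BDGP6 assembly, Ensembl release 115 annotation). From the lower coordinate upward the cluster holds Hsp67Bc (9371511 to 9372497, minus strand), Hsp22 (9372931 to 9374964, plus), Hsp26 (9376418 to 9377427, minus), Hsp67Ba (9377802 to 9379534, minus), Hsp23 (9381882 to 9382765, plus) and Hsp27 (9384063 to 9385694, plus). The gene l(2)efl stands apart on chromosome arm 2R (23684651 to 23685543, minus). The neighbours CG4456 and CG4461 are in the same cluster. CG4456, which the annotation's older names call Hsp67Bb, overlaps Hsp22, and 1 of the 2 annotated Hsp22 transcripts has the same 3 exons as 1 of the 4 CG4456 transcripts. Reads from that shared transcript cannot be told apart between the genes, so the values of Hsp22 and of CG4456 are uncertain to that extent.

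A few facts of the libraries bear on the results. Normalized counts summed to between 56411248 and 70637997 per library in head, 54372784 and 75354692 in fat body and 61929809 and 69203516 in ovaries. Those sums follow the scaling and are not the number of reads. In head, M RNA-1 replicates 1 and 3 stood apart: across genes, their deviation from the mean of all libraries had a Spearman correlation with transcript length of -0.54 and -0.61, against -0.07 to 0.38 in the other 10 head libraries, so that short genes read high there. In fat body, most germline RNA was in the first M RNA-1 replicate and in replicates 1 and 3 of late H, with a summed level of 7 germline markers (of 8 listed) of 157, 231 and 244 ppm (a gene's value over its library total, times 1000000), against 16.0 to 134 ppm in the other libraries. Calls of the named genes that use these libraries are also given without them. Those fits leave 1 library in M RNA-1 of head (replicate 2) and 1 in H RNA-2 of fat body (replicate 2). The spread in such a group is then borrowed from the others, and these fits are given as values, not as support for a call. The germline-rich fat body libraries were not those with most eggshell and follicle cell RNA. The 8 markers of that list summed to 22.0, 5.54 and 11.7 ppm in them. Their highest sum in fat body, 576 ppm, was in M RNA-1 replicate 2, which stays in the fits without the germline-rich libraries.

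The 7 genes spanned a wide range of levels, and the order differed between tissues. Levels are set across tissues only as ppm of each library's total, because each tissue was normalized separately, and are a description with no test. Hsp26 stood at 1552 ± 159 ppm in the ovary (mean ± SD over 12 libraries of all groups), at 83.0 ± 74.4 ppm in fat body and at 48.0 ± 22.6 ppm in head. Hsp27 stood at 1098 ± 90.0 ppm in the ovary, 42.4 ± 50.1 ppm in fat body and 14.2 ± 4.30 ppm in head. For both genes the lowest ovary library (1287 ppm for Hsp26 and 930 ppm for Hsp27) was above the highest library of either other tissue (232 and 138 ppm, both in fat body), while fat body and head overlapped.

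Hsp22 had the opposite order, and l(2)efl was also lowest in the ovary. Hsp22 was at 237 ± 55.6 ppm in head, 94.2 ± 46.5 ppm in fat body and 19.2 ± 5.23 ppm in the ovary. Its head libraries (169 ppm and above) did not overlap the fat body libraries (163 ppm and below), and these did not overlap the ovary libraries (29.1 ppm and below). The level of l(2)efl was 126 ± 29.7 ppm in fat body and 77.5 ± 17.7 ppm in head, where the libraries overlapped, and 6.49 ± 2.12 ppm in the ovary, where the highest library (10.3 ppm) was below all libraries of the other tissues.

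Hsp23 had the closest tissue means of the 7, at 59.5 ± 12.1 ppm in the ovary, 31.8 ± 20.1 ppm in head and 27.6 ± 22.6 ppm in fat body, and the libraries of all 3 tissues overlapped. Hsp67Ba and Hsp67Bc were the low members. Hsp67Ba had 8.10 ± 0.66 ppm in head, 1.08 ± 0.15 ppm in the ovary and 0.33 ± 0.17 ppm in fat body, with no overlap between any pair of tissues. Hsp67Bc had 3.79 ± 0.81 ppm in head, 0.56 ± 0.42 ppm in fat body and 0.17 ± 0.06 ppm in the ovary. Its fat body and ovary libraries overlapped and all head libraries were above both.

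**Figure D1:**
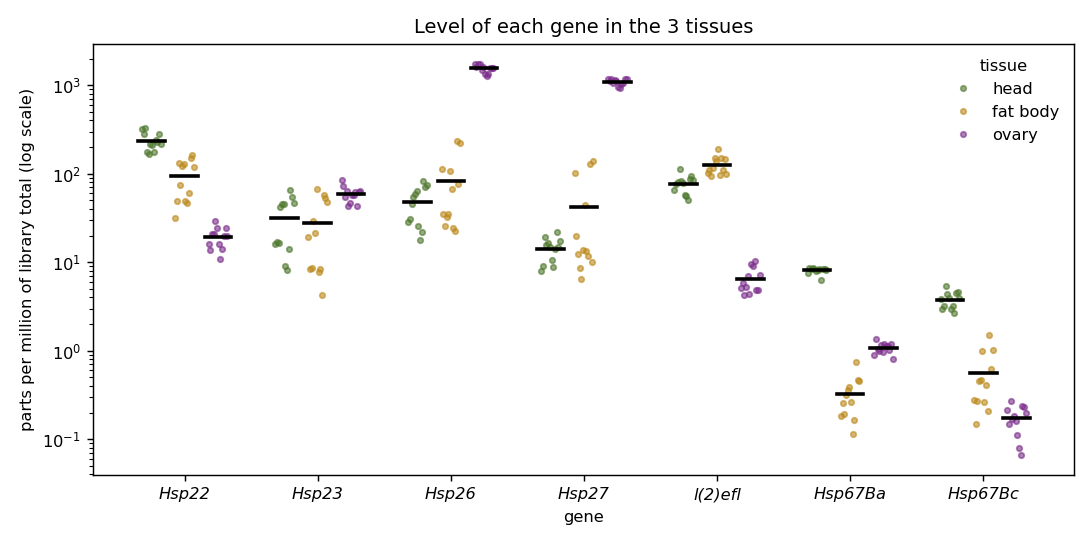
Level of each small heat shock protein gene in 12 libraries per tissue, as ppm of the library total on a log scale. Points are libraries of all diets and time points and bars are means; Hsp26 and Hsp27 were near 1552 and 1098 ppm in the ovary, and Hsp67Bc was at 0.17 ppm there.

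To compare genes with each other, levels were divided by the length of the longest annotated transcript. Per kb of transcript, Hsp22 stood at 125 ppm and l(2)efl at 105 ppm in head, followed by Hsp26 at 47.5 ppm, Hsp23 at 35.96 ppm, Hsp27 at 8.70 ppm, Hsp67Ba at 4.67 ppm and Hsp67Bc at 3.84 ppm. With the shorter Hsp22 transcript of 968 bases in place of the 1900 bases of the longer one, Hsp22 stood at 245 ppm per kb. In fat body l(2)efl led at 170 ppm per kb, ahead of Hsp26 at 82.2 ppm per kb and Hsp22 at 49.6 ppm per kb, and with its shorter transcript Hsp22 was at 97.3 ppm per kb and ahead of Hsp26. In the ovary Hsp26 at 1537 ppm per kb and Hsp27 at 673 ppm per kb were followed at a distance by Hsp23 at 67.3 ppm per kb.

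The question put by the first comparison is how these genes moved between the early and the late time point within each larval diet. In heads, Hsp23 and Hsp26 rose in both diets, l(2)efl rose in H, and Hsp22 fell in M. A gene was called with an adjusted p (Benjamini-Hochberg, over all genes tested in the tissue) under 0.05 in limma, and all 7 genes passed the filter on low values in all 3 tissues. In M heads 2 of the 7 genes were called higher and 1 lower at RNA-2, where 15.8% of all 11197 genes tested were called higher and 16.1% lower. In H heads 3 were called higher and 0 lower, against 11% and 8.56% of all genes. The median log2 change of the 7 genes was 0.17 in M and 0.51 in H, beside a median over all genes of 0.02 and -0.01.

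Hsp23, a cytosolic member, had the largest change of the 7 in head. Its normalized counts in M were 1145, 1117 and 1124 at RNA-1 and 2437, 2602 and 2545 at RNA-2. In H they were 601, 545 and 894 at RNA-1 and 3741, 3142 and 2726 at RNA-2. In both diets every late library was above every early one, and the H libraries were the lowest of all at RNA-1 and the highest at RNA-2. The log2 change was 1.16 (SE 0.16, adjusted p = 5.87e-04) in M and 2.26 (SE 0.16, adjusted p = 7.93e-06) in H. Without M RNA-1 replicates 1 and 3 (1 library left there) the M change was 1.18 (adjusted p = 0.022). All fold changes are on the scale of log2(value + 1), with 3 libraries per group.

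Hsp26 followed Hsp23 across the head libraries (Pearson r = 0.93 over 12 libraries, which share the group differences, as a description). It had 1996, 2039 and 3163 normalized counts in M at RNA-1 and 3132, 3353 and 3577 at RNA-2. The early M library at 3163, replicate 3, is 1 of the pair that reads short genes high, and it overlapped the late libraries. In H it had 1703, 1173 and 1381 at RNA-1 and 4768, 4049 and 4340 at RNA-2, with a wide gap between the time points. The log2 change was 0.51 (SE 0.18, adjusted p = 0.045) in M and 1.64 (SE 0.18, adjusted p = 7.92e-05) in H. The M call did not hold without any 1 of M RNA-1 replicates 1 and 2, the M RNA-2 replicates, H RNA-1 replicate 3 or the H RNA-2 replicates (log2 change 0.40 to 0.56, adjusted p 0.054 to 0.165), and without M RNA-1 replicates 1 and 3 together, with 1 library left there, it was 0.72 (adjusted p = 0.035).

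Hsp22, the mitochondrial member and the most abundant of the 7 in head, moved the other way in M. Its normalized counts were 22872, 18263 and 22667 in M at RNA-1 and 9962, 9510 and 12121 at RNA-2. In H they were 14135, 11557 and 15120 at RNA-1 and 13057, 15994 and 12750 at RNA-2. The late M libraries were all below the early ones, while the H libraries of the time points overlapped. The log2 change was -1.01 (SE 0.14, adjusted p = 6.31e-04) in M and 0.04 (SE 0.14, 95% interval -0.28 to 0.35) in H. Without M RNA-1 replicates 1 and 3, which held the 2 highest values, M RNA-1 was a single library of 18263 and the M change was -0.80 (adjusted p = 0.028).

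The gene l(2)efl had 3823, 3719.6 and 3202 normalized counts in H heads at RNA-1 and 5004, 5453 and 5069 at RNA-2, and every late library was above the early ones. Its log2 change in H was 0.53 (SE 0.13, adjusted p = 0.016). The call was lost without H RNA-1 replicate 3 (0.46, adjusted p = 0.0504) or H RNA-2 replicate 3 (0.50, adjusted p = 0.066). In M it had 4591, 5096 and 5535 at RNA-1 and 6401, 4650.0 and 4429 at RNA-2, and the change was 0.01 (95% interval -0.29 to 0.30). Hsp27, Hsp67Ba and Hsp67Bc were called in neither diet. Hsp27, the nuclear member, had between 557 and 1308 normalized counts over the 12 head libraries, with both extremes in M at RNA-1. Hsp67Ba had between 392 and 570 and Hsp67Bc between 168 and 305. For Hsp67Bc in H the log2 change was 0.37 (95% interval 0.01 to 0.73, adjusted p = 0.15), and the late libraries were all above the early ones.

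**Figure D2:**
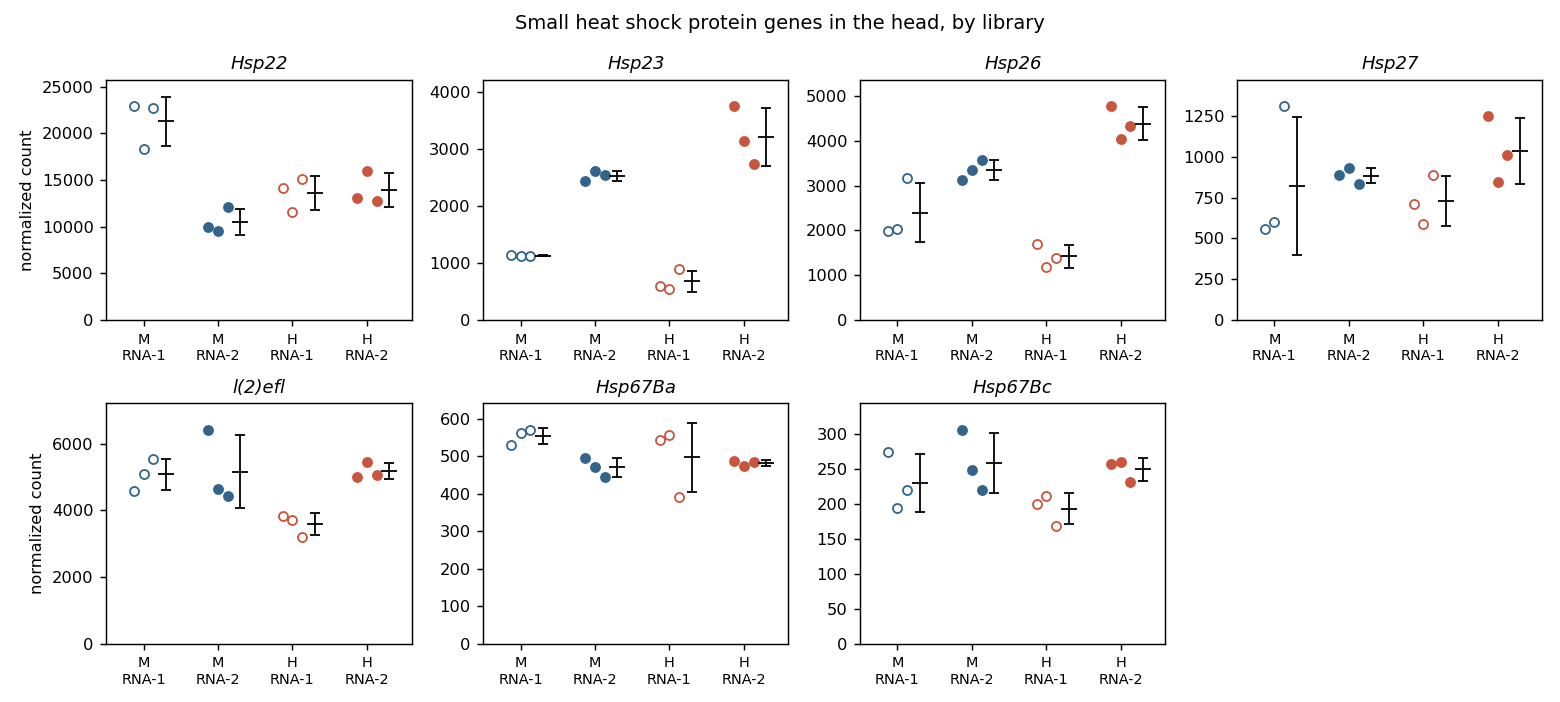
Normalized counts of the 7 small heat shock protein genes in each head library (y axis from 0), by larval diet (M blue, H red) and time point (open RNA-1, filled RNA-2). Bars to the right of the points give the mean and SD of 3 libraries; Hsp23 rises from 1117 to 1145 up to 2437 to 2602 in M and from 545 to 894 up to 2726 to 3741 in H, and Hsp22 is highest in M at RNA-1.

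Cell type markers moved between the time points in the same heads. The summed level of 6 photoreceptor markers was 38629 to 41784 ppm in M and 36683 to 43679 ppm in H at RNA-1, and 11404 to 15611 ppm and 10693 to 15896 ppm at RNA-2. The summed level of 6 fat body markers was 96949 to 115375 ppm in M and 80380 to 105416 ppm in H at RNA-1, and 31767 to 35351 ppm and 41418 to 49807 ppm at RNA-2. The sums of other lists moved the other way. The 10 muscle markers were at 3467 to 4884 ppm in M and 3972 to 4166 ppm in H at RNA-1. At RNA-2 they were at 5624 to 5972 ppm and 4920 to 5350 ppm. As a mean of log2 normalized values, however, the muscle markers overlapped between the time points in both diets. At RNA-1 these means were 13.6 to 14.0 in M and 13.7 to 13.9 in H, and at RNA-2 13.9 to 14.1 and 13.7 to 13.8. The 3 glia markers were at 356 to 446 ppm and 432 to 460 ppm at RNA-1, and at 528 to 563 ppm and 552 to 625 ppm at RNA-2. The 5 neuron markers were at 1647 to 2093 ppm in early H and 1026 to 1764 ppm in early M heads. In late heads they were at 1319 to 1416 ppm in H, below the early H libraries, and at 1341 to 1530 ppm in M. No marker of these 5 lists was at 0 in any head library, and their part in the changes of the small heat shock protein genes was not tested.

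The second question is whether the change differed by larval diet. In head, the estimate of the H change minus the M change was above 0 for all 7 genes, and it was near 1 on the log2 scale for Hsp22 (1.05, SE 0.20), Hsp23 (1.09, SE 0.23) and Hsp26 (1.13, SE 0.25). Of the 7 genes 0 were called in the limma interaction term (adjusted p 0.077 for Hsp22, 0.082 for Hsp23 and 0.093 for Hsp26), where 0.152% of all genes were called. At an unadjusted p under 0.05, 4 of 7 passed (the fourth was l(2)efl at 0.53), against 18.1% of all genes. Without M RNA-1 replicate 2 the interaction was called for Hsp22 (1.16, adjusted p = 0.0019), Hsp23 (1.10, adjusted p = 0.0093) and Hsp26 (1.23, adjusted p = 0.0064), and that leaves M RNA-1 with the pair of libraries that reads short genes high. Without H RNA-1 replicate 3 it was called for Hsp23 (1.31, adjusted p = 0.023). The share of all genes called in these fits is not given here. Without M RNA-1 replicates 1 and 3, with that group a single library, the estimates were not called, at values of 0.84 for Hsp22, 1.08 for Hsp23 and 0.93 for Hsp26.

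At the early time point the H heads had less of these transcripts than the M heads. Hsp22 was lower in H by 0.65 on the log2 scale (estimate -0.65, SE 0.14, adjusted p = 0.037), Hsp23 had an estimate of -0.76 (SE 0.16, adjusted p = 0.033) and Hsp26 one of -0.74 (SE 0.18, adjusted p = 0.046). For all 3 genes, and for l(2)efl (estimate -0.50, adjusted p = 0.067), every H library was below every M library. How many of all genes separate in this way was not counted. Of the 7 genes 3 were called lower and 0 higher, against 2.75% and 0.643% of all genes. These values use the same RNA-1 libraries as the changes with time, so they are not separate evidence. Without M RNA-1 replicates 1 and 3, which leaves M RNA-1 with 1 library, none of the 3 was called (-0.43 for Hsp22, -0.75 for Hsp23 and -0.54 for Hsp26, adjusted p 0.36 to 0.55), and with a single library left out the number of the 7 genes called lay between 0 and 4.

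At the late time point 0 of 7 genes were called between the diets in head, where limma called 0.196% of all genes. An unadjusted p under 0.05 was found for 1 of 7 (Hsp22), against 585 of all 11197 genes. Every H library was above every M library for Hsp22 (estimate 0.40, 95% interval 0.09 to 0.72), Hsp23 (0.33, 95% interval -0.03 to 0.68) and Hsp26 (0.39, unadjusted p = 0.0504). For these 3 genes the H libraries were thus below M at RNA-1 and above M at RNA-2, and the interaction was not called. The share of all genes that do so was not counted, and RNA-1 includes M replicates 1 and 3, which read short genes high.

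In fat body, Hsp23 rose in both diets and Hsp67Ba rose in H. Hsp22 and Hsp67Bc in both diets, and Hsp26 and Hsp27 in H, had positive estimates that did not pass the test. Hsp26 was at 0.03 in M. Negative estimates, also not called, were those of Hsp27 in M (-1.74) and l(2)efl in H (-0.60). For Hsp27 in M every late library was below every early one. In M 1 of 7 genes was called higher and 0 lower at RNA-2, against 8.52% and 5.07% of all 10850 genes tested. In H 2 were called higher and 0 lower, against 6.55% and 8.76%. The median log2 change of the 7 genes was 0.65 in M and 1.26 in H, beside -0.02 and 0.05 over all genes.

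Hsp23 had 1205, 568 and 607 normalized counts in M fat body at RNA-1 and 1859, 1420 and 4207 at RNA-2. In H it had 513, 625 and 319 at RNA-1 and 3122, 3352 and 2642 at RNA-2. Late libraries were above early libraries in both diets, by a small gap in M and a wide one in H. The log2 change was 1.58 (SE 0.42, adjusted p = 0.036) in M and 2.69 (SE 0.42, adjusted p = 0.0026) in H. The M call was lost in 6 of the 12 fits without 1 library: M RNA-1 replicate 2 or 3, M RNA-2 replicate 1 or 3 or H RNA-2 replicate 1 or 3 (1.12 to 1.71, adjusted p 0.051 to 0.12). Without the 3 libraries richest in germline RNA, which leaves 1 library in H RNA-2, the change was 1.92 (adjusted p = 0.059) in M and 2.84 (adjusted p = 0.058) in H, and with the germline marker level as a covariate it was 1.82 (adjusted p = 0.13) and 2.64 (adjusted p = 0.0050).

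Hsp67Ba was a low transcript in fat body. It had 17.7, 8.64 and 12.3 normalized counts in H at RNA-1 and 40.2, 29.3 and 25.5 at RNA-2, and the log2 change was 1.26 (SE 0.33, adjusted p = 0.029). In M it had 11.6, 17.5 and 13.9 at RNA-1 and 20.3, 23.6 and 24.7 at RNA-2 (0.65, SE 0.33, adjusted p = 0.22), and late libraries were above early ones in both diets. Counts this low carry large sampling error, and the H call was lost without H RNA-1 replicate 2 or 4 or H RNA-2 replicate 1 or 3 (1.02 to 1.40, adjusted p 0.052 to 0.12). Without the germline-rich libraries (1 left in H RNA-2) the H change was 1.18 (adjusted p = 0.25). Hsp67Bc, at 10.3 to 82.2 normalized counts, also had late libraries above early ones in both diets, with log2 changes of 1.27 (SE 0.44, adjusted p = 0.082) in M and 1.43 (SE 0.44, adjusted p = 0.052) in H, and of 1.37 and 0.91 without the germline-rich libraries.

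Hsp22 in fat body had 2000.0, 3368 and 9496 normalized counts in M at RNA-1 and 4697, 8051 and 8204 at RNA-2, with overlap. In H it had 3275, 3517 and 4607 at RNA-1 and 8222, 10236 and 6586 at RNA-2, without overlap. The log2 changes were 0.76 (95% interval -0.31 to 1.83) and 1.13 (95% interval 0.06 to 2.20, adjusted p = 0.14), and 0.26 and 1.45 without the germline-rich libraries. The fall of Hsp22 seen in M heads had no counterpart among the fat body estimates, though the difference between tissues was not tested. For l(2)efl the estimates were 0.33 in M (95% interval -0.19 to 0.85) and -0.60 in H (95% interval -1.12 to -0.08, adjusted p = 0.12), and 0.29 and -0.14 without those libraries.

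Hsp26 and Hsp27, the ovarian members, were high in the fat body libraries with most germline RNA, but did not follow it in every library. Hsp27 had 6449 normalized counts in M RNA-1 replicate 1 and 6959 and 7676 in H RNA-2 replicates 1 and 3, the 3 libraries with most germline RNA, and 422 to 2946 in the other 9. As a share of its mean ovary level in ppm, Hsp27 was at 9.30%, 11.7% and 12.6% in those 3 libraries, and the germline markers were at 6.08%, 8.93% and 9.43% of theirs. The third late H library, replicate 2, had the germline markers at 0.80% and Hsp27 at 0.92% of the ovary mean. Hsp26 was at 7.32%, 14.9% and 14.4% of its ovary mean in the germline-rich libraries, but also at 6.91% in M RNA-2 replicate 3, where the germline markers were at 0.87%. In M RNA-1 replicate 2, at 134 ppm next below the germline-rich libraries, the markers were at 5.18%, Hsp27 at 1.79% and Hsp26 at 2.24%. In M RNA-1 replicate 3 they were at 3.01%, 1.13% and 1.65%. By contrast Hsp22 stood at 165% to 848% and l(2)efl at 1460% to 2949% of their ovary means in fat body.

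Neither gene was called in fat body, where the spread within groups was large. Hsp27 had a log2 change of -1.74 (95% interval -4.0 to 0.52) in M and 1.24 (95% interval -1.03 to 3.50) in H. Without the 3 germline-rich libraries H RNA-2 was a single library, and the H estimate was -1.11 and the M estimate -0.88 (neither called), and with the germline covariate the M estimate turned to 1.285 and the H estimate was 0.58. Hsp26 had changes of 0.03 (95% interval -1.44 to 1.4995) in M and 1.92 (95% interval 0.44 to 3.39, adjusted p = 0.081) in H. Without those libraries they were 0.62 and 1.01. None of the 7 germline markers was at 0 in any fat body library. The tissue's own 6 fat body markers summed to 116092 to 121541 ppm in M and 127933 to 138182 ppm in H at RNA-1, and to 38363 to 46953 ppm and 49907 to 53749 ppm at RNA-2. The 4 gut markers were present too, although gut had been removed. They were at 1808 and 1919 ppm in H RNA-2 replicates 1 and 3, both germline-rich, and at 4821 to 13415 ppm in the other libraries. Those late H libraries thus differed in more than germline RNA, and leaving them out does not isolate it. The part of these markers in the changes was not tested.

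**Figure D3:**
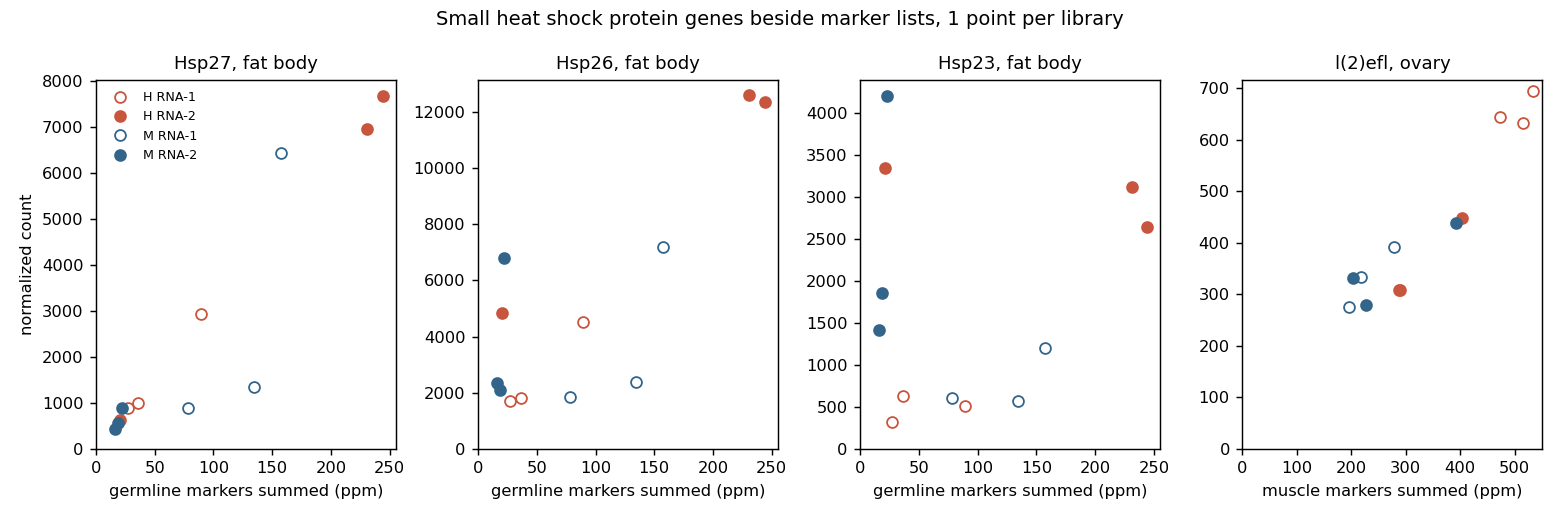
Normalized counts of Hsp27, Hsp26 and Hsp23 in fat body against the summed level of 7 germline markers (ppm of library total), and of l(2)efl in the ovary against the summed level of 10 muscle markers, with 1 point per library (M blue, H red, open RNA-1, filled RNA-2). Hsp27 is at 6449 to 7676 in the 3 fat body libraries with 157 to 244 ppm of germline markers and at 422 to 2946 in the others, and l(2)efl is at 632 to 695 in the 3 ovary libraries with 473 to 534 ppm of muscle markers.

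Between the diets, limma called 0 of the 7 genes in fat body in the interaction (2.02% of all genes called), at RNA-1 (0.986%) and at RNA-2 (0.599%). At an unadjusted p under 0.05, 1 of 7 passed in the interaction (l(2)efl, -0.93), against 24.1% of all genes. At RNA-1 it was 1 of 7 (l(2)efl, 0.56), against 1719 of all 10850 genes. At RNA-2 it was 2 of 7 (Hsp26, 1.505, and Hsp27, 2.45), against 2442 of all 10850 genes. Without H RNA-2 replicate 2, the late H library with little germline RNA, 2 genes were called in the interaction, Hsp27 (4.15) and l(2)efl, and Hsp27 was called at RNA-2 (3.63). The same omission raised the calls with time in H from 2 to 5. The number of all genes called can shift in that fit too and is not given here, so these counts cannot be read as particular to the 7 genes.

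In ovaries the abundant Hsp26 and Hsp27 had no call with time, and Hsp22, Hsp67Bc and l(2)efl were called in H. In M 0 of 7 genes were called by limma, against 9.76% of all 9438 genes tested called higher and 10.6% called lower. At an unadjusted p under 0.05, 3 of 7 passed in M, against 3372 of all 9438 genes. In H 2 were called higher and 1 lower, against 25% and 22.8%, so these counts were near the shares of all genes. Calls in H and not in M do not show a difference between the diets, and in the interaction 0 of 7 were called by limma, as were 0% of all genes. At an unadjusted p under 0.05 in the interaction, 4 of 7 passed (Hsp26, Hsp27, l(2)efl and Hsp67Bc), against 18.5% of all genes.

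The gene l(2)efl had the clearest change. It had 645, 632 and 695 normalized counts in H ovaries at RNA-1 and 308, 308 and 448 at RNA-2. In M it had 332, 391 and 276 at RNA-1 and 332, 439 and 279 at RNA-2. The early H libraries stood above the other 9. The log2 change with time was -0.91 (SE 0.20, adjusted p = 0.0023) in H and 0.06 (95% interval -0.36 to 0.48) in M, and H exceeded M at RNA-1 by 0.99 (SE 0.20, adjusted p = 0.0097). Muscle markers moved in the same way, as 10 markers summed to 473 to 534 ppm in the early H ovaries, 197 to 279 ppm in the early M, 288 to 403 ppm in the late H and 203 to 392 ppm in the late M ovaries, and at most 1 of the 10 was at 0 in any library. With the muscle marker level as a covariate, chosen after seeing the data, the change in H was -0.41 (adjusted p = 0.12) and the difference at RNA-1 was 0.28 (adjusted p = 0.81). That level, a mean of log2 values, was 10.5 to 10.8 in the early H, 9.27 to 9.90 in the early M and 9.72 to 10.0 in the late H ovaries. It thus separated the groups compared, so a call lost with it, here or for the genes below, cannot tell marker level from group.

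Eggshell and fat body markers also moved in these ovaries. The summed level of 8 eggshell and follicle cell markers was 16484 to 21773 ppm in the early H ovaries and 6367 to 13392 ppm in the early M, and 950 to 2547 ppm and 255 to 1469 ppm in the late H and M ovaries, with none at 0. That of 6 fat body markers was 5907 to 8200 ppm in the early H, 2670 to 4922 ppm in the early M, 897 to 1467 ppm in the late H and 690 to 1487 ppm in the late M ovaries, with at most 1 at 0 in a library. As a mean of log2 values, the fat body list overlapped between the early diets, at 10.8 to 11.4 in H and 10.9 to 11.3 in M. The gap between the early diets was thus in the sum and not over the whole list. The part of these lists in the changes of the 7 genes was not tested.

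Hsp22 rose in late H ovaries, from 1101, 749 and 946 normalized counts to 1237, 1530 and 1239, with late above early libraries. The log2 change was 0.53 (SE 0.17, adjusted p = 0.025) in H and 0.51 (SE 0.17, adjusted p = 0.058) in M, where the counts went from 1044, 920 and 1345 to 1324, 1809 and 1545 and overlapped. The H call was lost without H RNA-1 replicate 2 or 4 or H RNA-2 replicate 2 (0.38 to 0.55, adjusted p 0.051 to 0.11), and with the muscle covariate (0.46, adjusted p = 0.21). Hsp67Bc rose in H from 7.60, 5.47 and 4.44 to 14.9, 14.6 and 12.4 normalized counts (log2 change 1.15, SE 0.40, adjusted p = 0.032), at levels where few reads decide the value. Its call was lost without M RNA-2 replicate 3, H RNA-1 replicate 2 or 4, or H RNA-2 replicate 1 or 2 (1.00 to 1.15, adjusted p 0.051 to 0.098), and with the muscle covariate (0.92, adjusted p = 0.26).

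Hsp26 and Hsp27, whose transcripts are known from nurse cells and oocytes of unstressed flies, were lower in H than in M ovaries at the early time point. Hsp26 had 114036, 106453 and 113035 normalized counts in M and 91255, 89092 and 91362 in H. Hsp27 had 76697, 75043 and 76444 in M and 65342, 64358 and 69160 in H. No H library reached an M library for either gene, and the differences were small, at -0.30 (SE 0.06, adjusted p = 0.0096) and -0.20 (SE 0.05, adjusted p = 0.018) on the log2 scale. The Hsp27 call was lost without M RNA-1 replicate 1 or 3 or H RNA-1 replicate 2 (-0.20 to -0.18, adjusted p 0.063 to 0.082). With the muscle covariate the estimates were -0.11 (adjusted p = 0.78) and -0.22 (adjusted p = 0.74).

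With l(2)efl, 1 of 7 genes was thus called higher and 2 lower in H ovaries at RNA-1, against 11.5% and 13.5% of all genes. At RNA-2 limma called 0 of 7 (0.0318% of all genes), and 0 of 7 had an unadjusted p under 0.05, against 403 of all 9438 genes. There Hsp26 differed between diets by -0.05 (95% interval -0.18 to 0.08) and Hsp27 by 0.01 (95% interval -0.10 to 0.12). The RNA-1 estimates lie outside these intervals but carry error of their own. The interaction, which compares the time points, was called for neither gene (0.25 for Hsp26 and 0.21 for Hsp27). Hsp23 was called in no ovary comparison. Its 12 libraries lay between 2694 and 5510 normalized counts, with estimates of -0.50 (95% interval -0.97 to -0.04) in M and -0.22 (95% interval -0.68 to 0.25) in H. Hsp67Ba stayed between 49.6 and 91.3 and was called in none either.

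**Figure D4:**
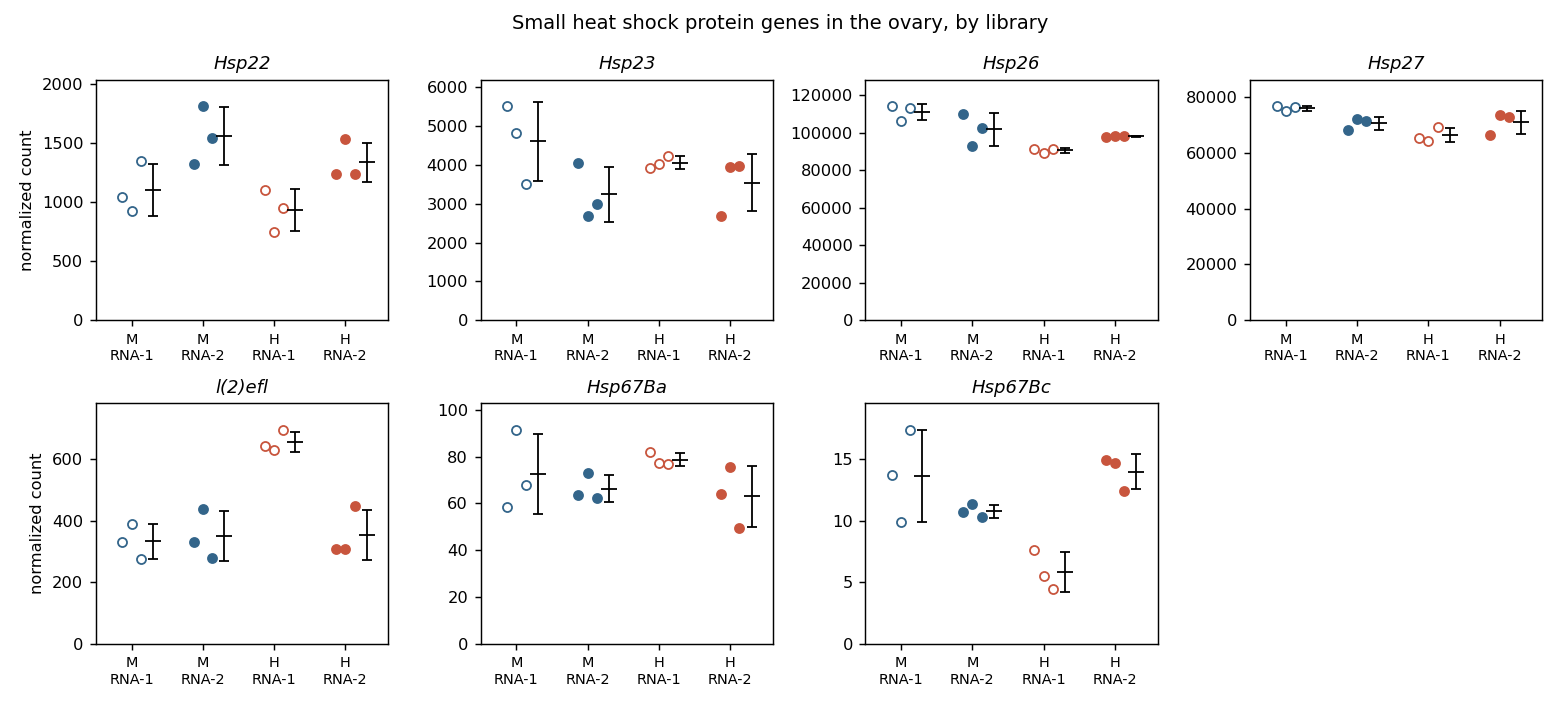
Normalized counts of the 7 small heat shock protein genes in each ovary library (y axis from 0), by larval diet (M blue, H red) and time point (open RNA-1, filled RNA-2), with mean and SD of 3 libraries to the right of the points. The early H libraries of l(2)efl lie at 632 to 695, above the other libraries, and Hsp26 stays between 89092 and 114036.

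**Figure D5:**
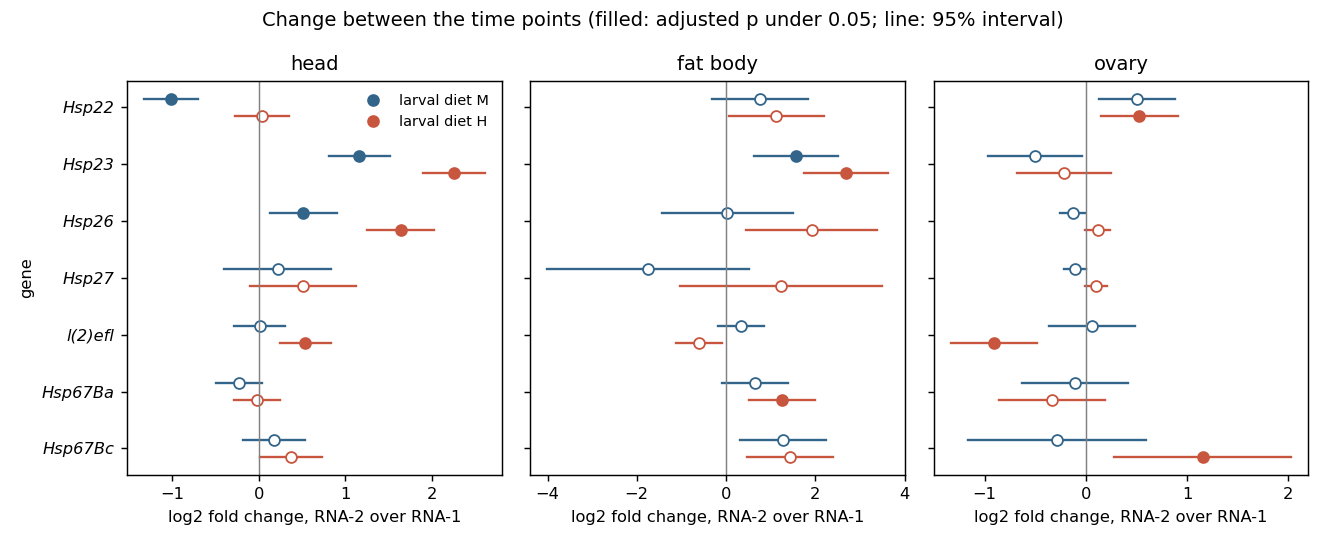
Log2 fold change of RNA-2 over RNA-1 for the 7 genes in head, fat body and ovary, with its 95% interval from limma (lines), in larval diet M (blue) and H (red); filled points passed an adjusted p under 0.05. Hsp23 is at 1.16 and 2.26 in head and at 1.58 and 2.69 in fat body, and is not called in the ovary.

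Across tissues, Hsp23 was called higher with time in 4 of 6 comparisons, in both diets of head and fat body, and in neither diet of the ovary. The tissues came from the same cohorts of females, so these comparisons are not independent. Hsp26 was called in both diets of head, Hsp22 was called lower in M heads and higher in H ovaries, and l(2)efl was called higher in H heads and lower in H ovaries. Hsp67Ba and Hsp67Bc were called in 1 comparison each, both at low counts, and Hsp27 in none with time. Of these calls, only those of Hsp23 in both diets of head, Hsp26 in H heads and Hsp22 in M heads held under every alternative fit. That of Hsp26 in M heads was lost in 14 of them and that of Hsp23 in M fat body in 11.

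Other genes of the heat shock response were followed in a list of 16, which holds the factor Hsf, 6 Hsp70 genes, Hsp68, Hsp83 (the fly Hsp90) and co-chaperones. In head 8 of 16 were called higher and 2 lower in M, and 12 higher and 1 lower in H, beside the shares of all genes given above. The median log2 change of the list was 0.25 in M and 0.40 in H. Hsp70Bb rose by 1.82 in M and 2.25 in H, Hsp70Ab by 1.55 and 2.19, and Hsp70Bbb by 1.43 and 2.63 (the M value chosen after it was seen). These stress-induced genes are near-identical copies of each other, so the division of reads among them is uncertain. Hsc70-1, a cognate of Hsp70, had changes of -0.995 and -1.42, and both were called. Hsp83 rose by 0.32 (adjusted p = 0.011) and 0.31 (adjusted p = 0.015), and Hsf, whose protein drives transcription of these genes, was called in neither diet. With M RNA-1 replicates 1 and 3 left out, the M values, chosen for this after the data were seen, were 1.49 for Hsp70Bb, 1.74 for Hsp70Ab, 1.31 for Hsp70Bbb, -1.12 for Hsc70-1 (all still called) and 0.27 for Hsp83 (adjusted p = 0.11).

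In fat body 2 of the 15 members tested were called higher and 0 lower in M (Hsp70Bc, 1.55, and Hsp70Bb, 1.41), and 0 higher and 1 lower in H, beside 8.52% and 5.07% of all genes in M and 6.55% and 8.76% in H. The 1 lower was Hsp83 (-0.41, SE 0.08, adjusted p = 0.0098), which was also the only member called in the interaction (-0.58, adjusted p = 0.041) and at RNA-1 (0.63, adjusted p = 0.015, where 0.986% of all genes were called). Without the germline-rich libraries none of these calls held, with Hsp83 at -0.44, -0.60 and 0.62, Hsp70Bc at 1.25 and Hsp70Bb at 1.19. In ovaries 2 of 15 were called higher and 1 lower in M, beside 9.76% and 10.6% of all genes, and 3 higher and 5 lower in H, beside 25% and 22.8%. The co-chaperone gene stv, the partner of Hsp67Bc, fell in H ovaries (-0.66, SE 0.15, adjusted p = 0.0034, chosen after it was seen) and was higher in H than in M at RNA-1 (1.06, SE 0.15, adjusted p = 0.0063), the same directions as for l(2)efl. Hsc70-4 did likewise (-0.57 and 0.32), while Hsf rose in H (0.47, adjusted p = 2.21e-04) and was lower in H at RNA-1 (-0.29, adjusted p = 0.013). At RNA-1, 4 members were called higher and 1 lower in H ovaries, beside 11.5% and 13.5% of all genes. In H heads 1 was higher and 1 lower (Hsc70-1, 0.44, and Hsp70Bbb, -0.94), beside 0.643% and 2.75%, and neither was called without M RNA-1 replicates 1 and 3 (0.32 and -1.06).

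The other small heat shock protein genes and neighbours of the 67B cluster formed a list of 5 distinct genes in head and fat body. CG14207, a further gene of the family, was called higher in both diets of head (0.32, adjusted p = 0.029, and 0.80, adjusted p = 1.81e-04), in M fat body (0.57, adjusted p = 0.026) and in H ovaries (0.24, adjusted p = 0.0064). It was lower in H than in M heads at RNA-1 (-0.42, adjusted p = 0.0425), as were Hsp22, Hsp23 and Hsp26. CG4461, which lies between Hsp22 and Hsp26, went against its neighbour Hsp26 in head, with changes of -1.17 (adjusted p = 0.0013) in M and -1.41 (adjusted p = 3.06e-04) in H. CG4456, which shares a transcript with Hsp22, rose in head in M (1.58, adjusted p = 0.011) and H (1.60, adjusted p = 0.011), at 29.9 to 68.3 normalized counts in the early and 81.6 to 217 in the late libraries. Without M RNA-1 replicates 1 and 3 of head, CG4461 was at -0.89 in M (adjusted p = 0.046), and the M values of CG14207 (0.38) and CG4456 (1.63) and the RNA-1 value of CG14207 (-0.36) were not called. Without the germline-rich fat body libraries CG14207 was at 0.57 in M (adjusted p = 0.029). In the ovary 2 genes of the list were tested.

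The genes whose profile over the 12 libraries of a tissue was most like the mean standardized profile of the 7 genes were found by Pearson's r, as a description. In head they were Adgf-D (r = 0.96), Cyt-b5-r (0.96), Obp44a (0.96), CG42846 (0.95) and pyd3 (0.94). In fat body they were Gprk2 (0.91) and 4 copies of the histone H3 gene with identical values (0.91), and in the ovary CG14818 (0.88), mRpS10 (0.87), CG33080 (0.85), Kmn2 (0.85) and mthl5 (0.84). The members themselves did not follow 1 profile. In head l(2)efl (0.91) and Hsp26 (0.86) were close to it and Hsp22 (0.14) was not, in fat body Hsp67Ba (0.89) was closest and l(2)efl (-0.19) farthest, and in the ovary l(2)efl (-0.47) ran against Hsp27 (0.87).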

How the data were processed

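The deposited signal values are normalized counts per gene. According to the sources, the authors quantified reads of stranded mRNA libraries with kallisto 0.46.1 (BDGP6) and scaled them in DESeq2 1.28.1 under R 4.0.1, each tissue on its own. Whole reads could not be recovered from these values, so raw depth was not used here and no count model was fitted. The 16 columns of the authors' own comparisons in each table (fold changes, p-values) were left out. All 36 libraries were grouped by their labels, which call them biological replicates. P-values measure the spread between these pools.

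A gene was tested where 3 or more of a tissue's 12 libraries reached a normalized count of 10. Values were fitted as log2(value + 1), using limma 3.58.1 (trend and robust options, statmod 1.5.0) under R 4.3.3, as 4 group means per tissue, and p-values were adjusted by Benjamini-Hochberg within each contrast. Tables and plots were made in Python 3.11.15 (pandas 2.3.3, numpy 2.4.6, matplotlib 3.10.9). The fit was tested on simulated data. Symbols matched 12757 of 12842 identifiers in head, 12310 of 12394 in fat body and 11229 of 11311 in ovaries. Hop was listed as Stip1.

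The 7 genes and the lists were chosen with earlier results of these data known. The text names all 7, up to 4 genes with the smallest p of each list in a comparison, the 5 most similar genes per tissue, and Hsf and Hsp83; genes outside this rule carry a remark saying so. Alternatives were other variance models, normalizations, filters, pseudocounts and thresholds, a replicate block, fits on fewer libraries, and germline or muscle marker covariates.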

Additional observations from a re-analysis of the deposited data

How the results depend on the processing

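Of 18 calls of single genes, 4 held under every alternative run (Hsp22 in M heads, Hsp23 in both diets of head and Hsp26 in H heads). Over 415 values under alternatives 0 reversed in sign, and 107 lost the call, 59 of them among the 216 with 1 library left out. Of 87 values not called, 38 changed sign and 26 were called under some alternative. The number of the 7 genes called between the diets in head at RNA-1 was 3, and it was 0 without a variance trend, with division by library totals, with the libraries of the comparison only, at an adjusted p under 0.01 and without M RNA-1 replicates 1 and 3. In M fat body it was 1, and it was 2 with quantile normalization and 0 with the libraries of the comparison only, at an adjusted p under 0.01, without the germline-rich libraries and with the germline covariate. In H fat body it was 2, and it was 5 with library totals and 1 at an adjusted p under 0.01. It was also 1 with a minimum of 50, where Hsp67Ba, at 40.2 at most in fat body, was not tested. In M ovaries it was 0, and it was 2 with quantile normalization and 1 with library totals. In H ovaries it was 3, and it was 5 with quantile normalization or library totals, 1 at an adjusted p under 0.01 and 0 with the muscle covariate, which also gave 0 in place of 3 between the diets at RNA-1. The cause was not tested, and the muscle marker level itself separated the ovary groups compared. Division by library totals moved the median over all genes, by up to 0.37 in fat body, 0.29 in head and 0.13 in ovaries on the log2 scale. The share of all genes called under each alternative is not given here. Counts of the 7 genes under alternatives, in this section and above, thus cannot be read as particular to these genes.

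With 1 library left out, the number called ranged from 0 to 4 in head between the diets at RNA-1 and from 0 to 3 in the head interaction. In fat body it ranged from 0 to 1 in M, 1 to 5 in H, 0 to 2 in the interaction and 0 to 1 between the diets at RNA-2. In ovaries it ranged from 0 to 2 in M, 1 to 4 in H and 0 to 1 in the interaction.

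Libraries with the same replicate number did not all deviate together (r of -0.13 to 0.15 in head, -0.12 to 0.28 in ovaries and -0.26 to 0.38 in fat body), with 1, 5 and 6 of 15 pairs over 0.1, beside 4, 5 and 9 of 39 pairs of other numbers, and no source pairs them. With the replicate block the count called was 1 in place of 3 between the diets in head at RNA-1, 0 in place of 1 in M fat body, 1 in place of 2 in H fat body and 1 in place of 3 in H ovaries. Without read depth, the sampling error of low genes such as Hsp67Ba and Hsp67Bc could not be computed.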
